A study of Mus musculus with 6 samples.

Results

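The 30 genes described here encode soluble enzymes and helper proteins of the lysosome other than the cathepsins: glycosidases, sulfatases, lipases, phosphatases, a few proteases and the activator proteins that present lipids to them. They were taken by name from a fixed list, and all 30 were found among the 17524 genes of the deposited table, after the estimated counts of all transcript models of a gene were summed. Lysosomal hydrolases are made in the endoplasmic reticulum, tagged with mannose 6-phosphate in the Golgi and delivered to the lysosome, where they work at acid pH, and inherited loss of most of them causes a storage disease. Many of their genes are targets of transcription factor EB (TFEB), which enters the nucleus when the lysosome is stressed or nutrients are low and binds a motif built around the E-box CACGTG. In the infarcted heart these enzymes serve both the turnover of the muscle cell's own contents and the clearance of debris by macrophages.

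RNA was sequenced from mouse hearts in 6 libraries, 3 from wild type by their labels (control 35, 36 and 37, after the numbers in their titles) and 3 labelled TFEB overexpression (TFEB 34, 41 and 43), and the left anterior descending coronary artery had been ligated in both groups. The overexpression line is given as R26-LSL-TFEB [+/+]; Acta2-cre, in which the Acta2 promoter, active in smooth muscle cells and myofibroblasts, drives the Cre that switches on a TFEB cassette at the Rosa26 locus. The sources used here do not say whether the wild-type mice carried Cre or the cassette, so effects of these and of TFEB cannot be told apart. The sources used here give neither the age of the mice nor the time after ligation, and do not state that each library came from its own animal, so the tests measure the spread between these samples, which may be technical.

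Each library held between 12942480 and 14969287 estimated counts. Values by library are given throughout in the order controls 35, 36 and 37, then TFEB 34, 41 and 43, as CPM, the share of a gene in the library's counts scaled by edgeR's TMM factor. As a check of the labels, Tfeb had 34.4, 33.8 and 41.4 CPM in the controls, then 45.4, 45.3 and 39.4 CPM with TFEB. The groups overlapped (log2 fold change 0.25, SE 0.12, edgeR adjusted p = 1.00), and the sources used here do not say whether RNA of the cassette counts towards this gene. The labels call the cells primary fibroblasts, and also give heart as the tissue. Heart muscle markers dominated every library: 12 cardiomyocyte markers summed to between 65649 and 116874 CPM, against 4029 to 17781 CPM for 10 fibroblast markers. Within each group, every pair of libraries differed by far more than counting error (chi-square over degrees of freedom from 43.5 to 149 across genes).

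None of the 30 hydrolase and activator genes passed the test between TFEB overexpression and control. By edgeR's quasi-likelihood test 0 of 30 were called at an adjusted p under 0.05, where 0 of all 13565 genes tested, or 0.00%, were. At an unadjusted p under 0.05 the count was again 0 of 30, against 164 of 13565 genes, or 1.21%. DESeq2 and limma-voom also called 0 of the 30. All 30 passed the filter on low counts. In 24 of the 30 the value was higher in TFEB overexpression and in 6 it was lower, against 51.0% higher among all genes tested. The median log2 fold change was 0.09, beside 0.0030 over all genes tested, and the members ran from −0.21 for Acp5 to 0.45 for Gla. For 0 of the 30 did the 3 values of one group lie clear of the other group, where 2.24% of all genes were clear on the higher side and 2.51% on the lower. The count of higher members turned on single libraries. It was 8 of 30 without TFEB 34, with a median of −0.059, and 15 of 30 without control 37, with a median of −0.0012. Without TFEB 43 it was 26 of 30, with a median of 0.25, and without control 36 it was 25 of 30, with a median of 0.17. In 3 genes, Gla, Lgmn and Acp2, the value stayed higher under every alternative listed in the closing section, though without TFEB 34 their log2 fold changes were 0.25, 0.046 and 0.028. None of the 3 was called under any alternative.

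**Figure D1:**
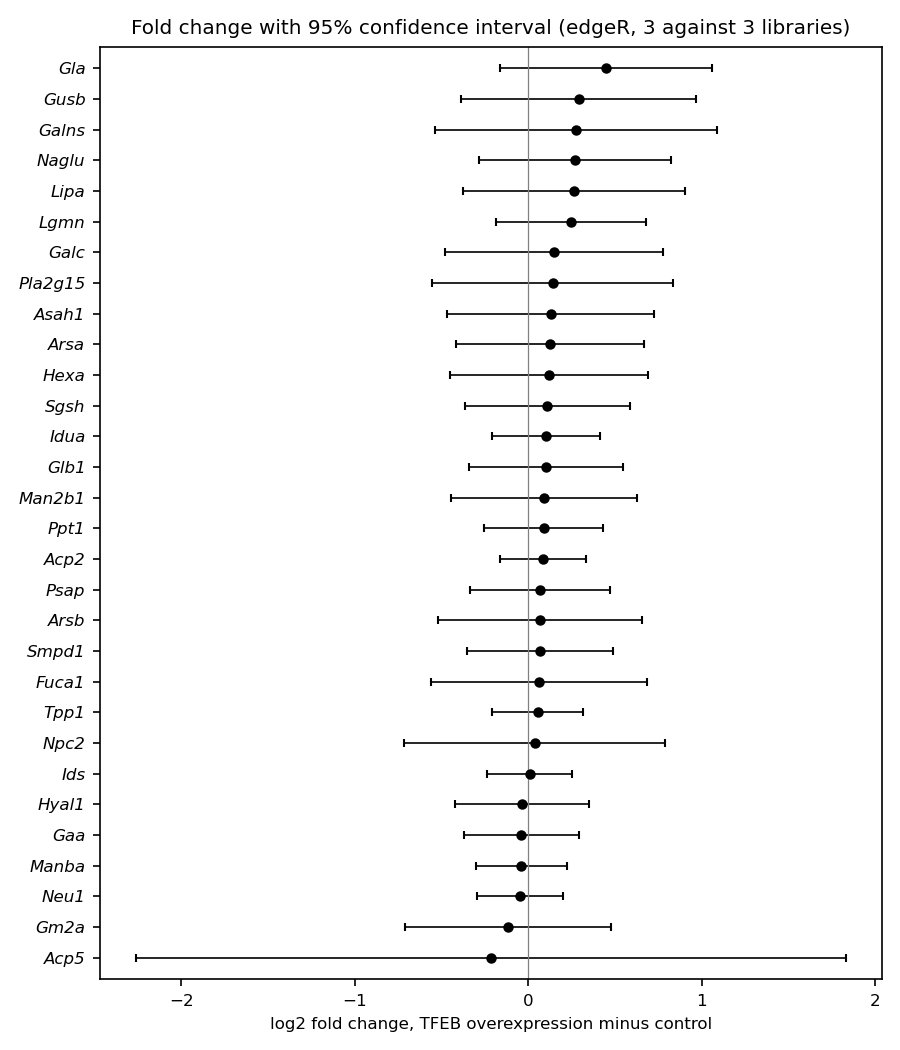
Log2 fold change of the 30 genes, TFEB overexpression minus control, with the 95% confidence interval of edgeR's quasi-likelihood fit, 3 libraries against 3. Every interval crosses 0, from Acp5 at −0.21 to Gla at 0.45.

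The intervals bound how large a difference these libraries allow in the tissue as a whole. A change confined to the cells in which Acta2 drives Cre was not measured apart from the other cells. All 30 of the 95% intervals of the ratio include 1. In 27 of 30 the upper bound was under a ratio of 2, the exceptions being Gla (2.09), Galns (2.13) and Acp5 (3.57), and in 13 of 30 it was under 1.5. The ratio of the highest to the lowest library of a group had a median of 1.31 in control and 1.66 in TFEB overexpression. It was the larger in TFEB overexpression in 24 of 30 genes. In each of the 30 genes the wider of these ranges exceeded the ratio between the groups. A range over 3 libraries readily exceeds a ratio of group means, so that count is a description only. The shares over all genes were not computed. Across all genes TFEB 34 and TFEB 43 also differed most of the pairs within a group (chi-square over degrees of freedom 149).

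The promoters of the genes were searched for the E-box because TFEB binds this motif, and the members that hold it are shown here. RefSeq promoter windows (GRCm38.p6, 300 bases, from 250 before to 50 after a start site) were matched for 28 of the 30 genes, with Asah1 and Galns not matched, and gave 32 windows. The 6-letter E-box CACGTG, which reads the same on both strands, stood in 7 of the 32 windows (21.9%), each of a different gene, and in 2349 of all 32851 windows (7.15%). Counted by gene, that is 7 of 28 members (25.0%) and 1241 of 10773 tested genes with a window (11.5%). The longer form TCACGTGA, which contains the E-box, stood in the window of 1 member, Gla, and in 0.974% of all windows. The 10-letter CLEAR element, which extends the longer form by 1 letter on each side, stood in none of the 32 and in 0.326% of all windows. Gla is shown whole, since it holds the longer form at 2 places, set in capitals. The first of these begins 228 bases before the start site. The 6 other genes are shown as 66 bases around the E-box, also in capitals.
Gla, alpha-galactosidase A, chrX:134600956-134601255, minus strand: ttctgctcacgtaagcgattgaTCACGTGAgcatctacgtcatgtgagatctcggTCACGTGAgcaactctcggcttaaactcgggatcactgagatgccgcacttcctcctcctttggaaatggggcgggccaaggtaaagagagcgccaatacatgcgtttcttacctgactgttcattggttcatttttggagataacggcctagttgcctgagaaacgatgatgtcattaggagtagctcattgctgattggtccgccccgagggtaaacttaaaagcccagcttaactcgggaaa
Lgmn, legumain, chr12:102439106-102439171, minus strand: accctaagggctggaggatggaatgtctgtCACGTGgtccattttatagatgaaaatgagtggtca
Naglu, alpha-N-acetylglucosaminidase, chr11:101069991-101070056, plus strand: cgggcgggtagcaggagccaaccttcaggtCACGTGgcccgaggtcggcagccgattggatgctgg
Glb1, beta-galactosidase, chr9:114401000-114401065, plus strand: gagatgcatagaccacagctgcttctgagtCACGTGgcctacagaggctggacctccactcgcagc
Arsa, arylsulfatase A, chr15:89477405-89477470, minus strand: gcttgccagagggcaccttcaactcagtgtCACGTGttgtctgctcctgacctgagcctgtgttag
Sgsh, heparan sulfamidase, chr11:119355504-119355569, minus strand: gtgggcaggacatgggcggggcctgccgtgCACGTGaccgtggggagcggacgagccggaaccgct
Gaa, acid alpha-glucosidase, chr11:119267793-119267858, plus strand: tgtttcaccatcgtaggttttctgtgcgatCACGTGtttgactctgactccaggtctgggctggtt
The E-box began 49 bases before the start site in Lgmn, in the window of a start that lies inside the gene, 73 before it in Naglu, 48 in Glb1, 16 in Arsa, 29 in Sgsh and 140 in Gaa. Of the 7 genes with an E-box in the window, 6 had a higher value in TFEB overexpression, all but Gaa, with a median log2 fold change of 0.13. Of the 21 matched genes without one, 16 had a higher value, with a median of 0.069. Single libraries turned these counts too: without TFEB 34, 2 of the 7 E-box genes had a higher value (Gla and Lgmn), with a median of −0.021, and 6 of the 21 others, with a median of −0.10. Without control 37 it was 5 of 7, with a median of 0.061, and 9 of 21, with a median of −0.0060. With the level of the macrophage markers described below as a covariate in the edgeR fit it was 4 of 7, with a median of 0.0018, and 8 of 21, with a median of −0.030. Gla, Lgmn and Naglu had the 3 smallest unadjusted p of the 30 genes (edgeR 0.124, 0.211 and 0.282). The other E-box genes, Arsa, Glb1, Sgsh and Gaa, ranked 10, 12, 13 and 24 by p. Gusb, Lipa and Acp2, which have no E-box in the window, ranked 4, 5 and 6. A match is a description of the letters in the window and does not show that TFEB was bound there, and the difference between the 2 sets was not tested.

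Levels between genes are compared on the TPM scale, which is scaled for transcript length. They spanned 334-fold, from a mean over the 6 libraries of 1160 TPM for Psap down to 3.48 TPM for Gla. Psap encodes prosaposin, the precursor that is cut into the saposins, small proteins that lift sphingolipids out of the membrane for their hydrolases, and it made up 45.9% to 57.0% of the summed TPM of the 30 genes in a library. It was followed by Smpd1 at 170 TPM, Lgmn at 142, Gaa at 101 and Hexa at 99.3. In all, 8 genes had a mean of at least 50 TPM and 5 a mean under 10 TPM, namely Hyal1, Galns, Sgsh, Acp5 and Gla. The summed TPM of the 30 genes was 2267, 2361 and 1978 in controls 35, 36 and 37 and 2667, 2226 and 2163 in TFEB 34, 41 and 43, so the groups overlapped.

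The libraries fell into the same order for most of the genes, and that order cut across the groups. TFEB 34 was the highest library for 22 of the 30 genes, and control 37 and TFEB 43 were the lowest pair for 22. Both held for 20 genes, and the share of all genes tested with this order was not computed. The mean log2 CPM of the 30 genes, relative to the mean of the 6 libraries, was 0.34 in TFEB 34, −0.26 in TFEB 43 and 0.035 in TFEB 41, and 0.043, 0.12 and −0.28 in controls 35, 36 and 37. The genes outside this order were Gla, Smpd1, Neu1, Psap, Ids, Idua, Gaa, Acp5, Tpp1 and Ppt1. The order was not particular to these 30 genes. By mean log2 CPM the further hydrolases, lysosomal membrane genes and cathepsins compared below had the same highest and lowest libraries. The tagging and sorting genes did not.

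**Figure D2:**
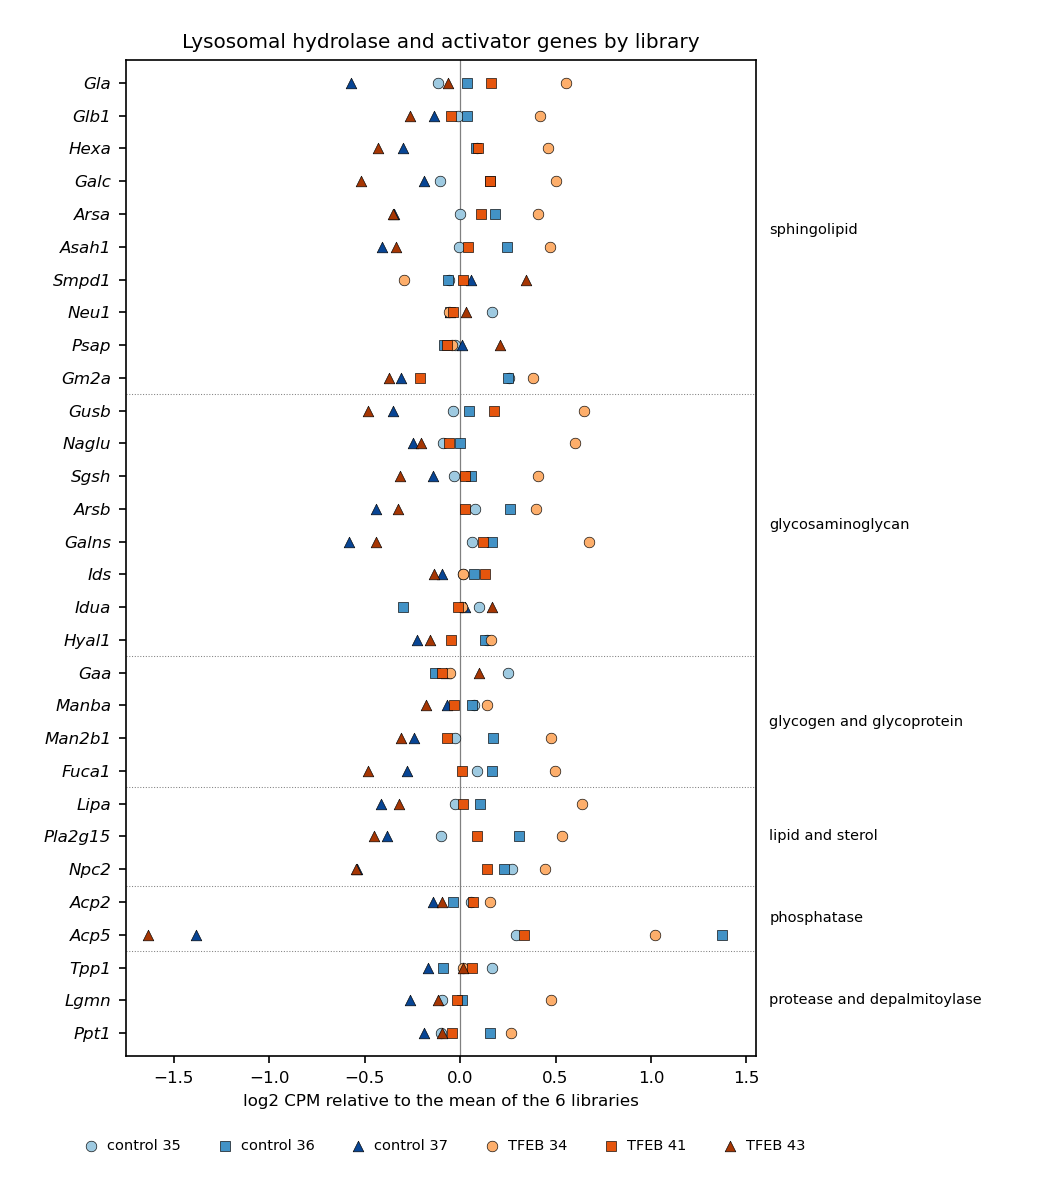
Log2 CPM of each of the 30 genes in each library, relative to the mean of the 6 libraries, by role of the protein. TFEB 34 (light orange circles) lies farthest right for 22 genes, and control 37 and TFEB 43 (dark triangles) farthest left together for 22.

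Macrophage and fibroblast markers had their highest sums in TFEB 34 and their lowest in TFEB 43 and control 37. The sums of endothelial, smooth muscle and adipocyte markers did not follow that order. By mean log2 CPM, however, the smooth muscle markers were highest in TFEB 34 (0.52) and lowest in TFEB 43 (−0.55), with the controls from −0.096 to −0.078. The 5 neutrophil markers had low sums that followed the order, at 12.3 CPM in TFEB 34, 5.99 CPM in control 37 and 4.71 CPM in TFEB 43. Csf3r made up 9.74 CPM of the sum in TFEB 34, while S100a8 was highest in control 35 and S100a9 in control 37. By mean log2 CPM of the 3 that were tested the order did not hold, with control 36 lowest (−1.03) and control 37 at 0.34. The 19 macrophage markers, all detected in every library, summed to 1066, 1261 and 696 CPM in controls 35, 36 and 37 and to 1808, 1116 and 619 CPM in TFEB 34, 41 and 43, and 16 of the 19 had a higher value with TFEB (0 called), or 6 of the 19 without TFEB 34. The 3 with a lower value were Cd163 and Mrc1, highest in control 35, and Itgam, highest in control 36. Cd163 had 34.8, 25.3 and 34.5 CPM in the controls, then 16.3, 15.2 and 27.0 CPM with TFEB. Its log2 fold change was −0.70 (edgeR unadjusted p = 0.032). It was the 1 macrophage marker at an unadjusted p under 0.05, where 1.21% of all genes were. The 10 fibroblast markers summed to between 5326 and 12059 CPM in control and between 4029 and 17781 CPM in TFEB overexpression, with TFEB 34 highest and TFEB 43 lowest. Of these, 5 of 10 were higher (0 of 10 without TFEB 34), 0 were called and none was at 0. The markers did not share 1 order. Tcf21, Col1a1, Col1a2, Col3a1 and Postn were highest in TFEB 34. Pdgfra, Dcn, Lum, Dpt and Gsn were highest in control 35, and Gsn was lowest in TFEB 34 (1117 CPM, against 2642 CPM in control 35). The 12 cardiomyocyte markers, of which 8 had a higher value and 0 were called, stood the other way round, at 65649 CPM in TFEB 34 and 116874 CPM in TFEB 43, and between 79673 and 107857 CPM in control. That count was 12 of 12 without TFEB 34, 2 of 12 without TFEB 43 and 1 of 12 without control 35. The 6 endothelial markers summed to between 1018 CPM in control 35 and 1251 CPM in control 36, with the TFEB libraries between these, and 3 of 6 had a higher value (0 called). Pecam1 had 281, 262 and 266 CPM in the controls, then 253, 239 and 236 CPM with TFEB (log2 fold change −0.15). It was the 1 endothelial marker with groups that did not overlap, where 2.51% of all genes were clear on the lower side. The 6 smooth muscle markers summed to 468, 408 and 535 CPM in the controls, then 621, 685 and 523 CPM with TFEB. TFEB 41 had the highest sum, and 4 of 6 had a higher value (0 called), or 3 of 6 without TFEB 34. Acta2, the gene whose promoter drives Cre, had 106, 100 and 137 CPM in the controls, then 214, 291 and 174 CPM with TFEB. It was the 1 marker of the 6 with groups that did not overlap, where 2.24% of all genes were clear on the higher side. Its log2 fold change was 0.98 (SE 0.22, edgeR unadjusted p = 0.0039). The 4 adipocyte markers (Adipoq, Plin1, Cidec and Cfd) summed to 40.8, 213 and 14.4 CPM in the controls, then 0.127, 9.15 and 6.53 CPM with TFEB. All 4 had every TFEB library below every control, where 2.51% of all genes tested did, and an unadjusted p under 0.05, with 0 called. TFEB 34 was their lowest library, and 2 of the 4 were at 0 in a library. In bulk tissue fewer cells of a type and less RNA per cell cannot be told apart. With the macrophage level as a covariate in the edgeR fit, 13 of the 30 genes had a higher value and the median log2 fold change was −0.0038. With the cardiomyocyte level as a covariate it was 24 of 30 and 0.098. The count at an unadjusted p under 0.05, which was 0 of 30 without a covariate, also moved. With the cardiomyocyte level it was 3 of 30, against 398 of 13565 genes (2.93%): Gla (log2 fold change 0.47), Lipa (0.27) and Lgmn (0.26), each at an edgeR adjusted p = 0.949. With the macrophage level it was 1 of 30, Acp5 (−0.79, edgeR adjusted p = 0.940), against 611 of 13565 genes (4.50%). Without TFEB 43 it was also 1, Gusb (0.54, edgeR adjusted p = 0.792), against 581 of 13804 genes (4.21%). The covariate levels came from the same 6 libraries, and the macrophage level, like the fibroblast and cathepsin levels, was highest in TFEB 34. These fits therefore cannot tell macrophages apart from other differences that run with that order. The part of any cell type in the hydrolase values, including fibroblasts, smooth muscle cells and adipocytes, was not tested.

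**Figure D3:**
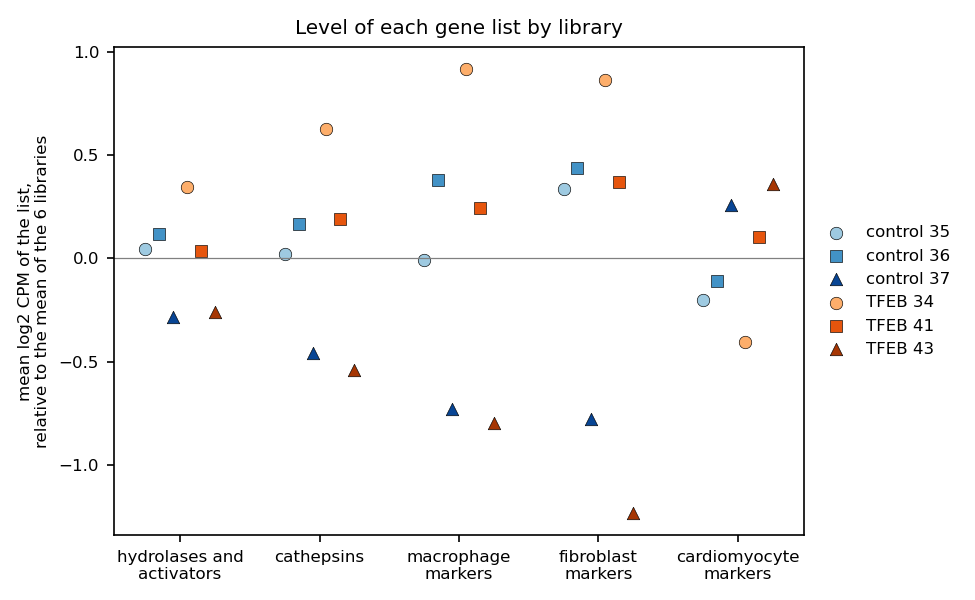
Mean log2 CPM of 5 gene lists in each library, relative to the mean of the 6 libraries. TFEB 34 is highest and control 37 and TFEB 43 are lowest in the hydrolase, cathepsin, macrophage and fibroblast lists, and the cardiomyocyte list runs the other way.

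A group of 10 genes serves the breakdown of sphingolipids, the lipids that build up in Fabry, Tay-Sachs, Krabbe and Niemann-Pick disease. Of these 10 genes, 8 had a higher value in TFEB overexpression, 0 were called, and the median log2 fold change was 0.11, or 3 of 10 and −0.084 without TFEB 34. Gla (Entrez 11605, mm10 chromosome X, 134588169 to 134601005), which encodes alpha-galactosidase A, the enzyme lacking in Fabry disease, had the largest log2 fold change and the smallest unadjusted p of the 30 genes. It had 5.17, 5.76 and 3.73 CPM in the controls, then 8.34, 6.30 and 5.37 CPM with TFEB. The groups overlapped only through TFEB 43, which lay below control 36. Group means of 4.89 ± 1.04 and 6.67 ± 1.52 CPM (SD, n = 3 each) gave a log2 fold change of 0.45 (SE 0.25) and a ratio of 1.36 whose 95% interval was 0.893 to 2.09 (edgeR adjusted p = 1.00). Between 48 and 131 counts per library lie behind these values, and without TFEB 34 the log2 fold change was 0.25.

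Psap (Entrez 19156, chromosome 10, 60277628 to 60302600) had 1653, 1592 and 1700 CPM in the controls, then 1634, 1608 and 1948 CPM with TFEB. TFEB 43 was the highest library, and the other 5 lay between 1592 and 1700 CPM, with control 36 the lowest. The log2 fold change was 0.070 (SE 0.17), and −0.024 without TFEB 43. Smpd1, which encodes acid sphingomyelinase, ran opposite to most of the list. Its values were 212, 211 and 229 CPM in the controls, then 180, 223 and 281 CPM with TFEB. From TFEB 34, its lowest library, to TFEB 43, its highest, the 6 libraries stood in the order of their summed cardiomyocyte markers. The log2 fold change was 0.068 (SE 0.17), and −0.11 without TFEB 43.

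Hexa encodes the alpha subunit of beta-hexosaminidase and shows the common order at a higher level. It had 107, 107 and 82.1 CPM in the controls, then 139, 108 and 75.0 CPM with TFEB (log2 fold change 0.12, SE 0.24, and −0.11 without TFEB 34). Gm2a, the GM2 activator that hands its lipid to the hexosaminidase, was 47.5 ± 9.93 CPM in control against 43.8 ± 12.7 CPM with TFEB (SD, n = 3 each), a log2 fold change of −0.12 (SE 0.25), or 0.028 without TFEB 43. The lysosomal beta-galactosidase gene Glb1 (0.10, SE 0.18), the galactosylceramidase gene Galc (0.15, SE 0.26), the arylsulfatase A gene Arsa (0.13, SE 0.23) and the acid ceramidase gene Asah1 (0.13, SE 0.25) had positive log2 fold changes. Without TFEB 34 these 4 were −0.11, −0.10, −0.066 and −0.10. Neu1, the sialidase, varied least of all 30 genes, between 24.0 and 28.1 CPM over the 6 libraries, with a log2 fold change of −0.047 (SE 0.10), or 0.031 without control 35.

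The estimated shares of Psap transcript models differed between libraries more than the gene's total. The table lists 8 models for Psap, and 3 held most of its TPM. NM_001146120 held 29.2%, 32.9% and 25.2% of the gene's TPM in controls 35, 36 and 37 and 47.5%, 29.9% and 19.3% in TFEB 34, 41 and 43. NM_011179 held 48.2%, 45.3% and 50.6% in the controls and 34.6%, 46.7% and 55.8% in TFEB 34, 41 and 43. TFEB 34 and TFEB 43 stood at opposite ends for both models, outside the range of the controls on either side, and the groups overlapped. In TPM, NM_001146120 ran from 238 in TFEB 43 to 582 in TFEB 34, while NM_011179 ran from 423 in TFEB 34 to 688 in TFEB 43. These are the 2 libraries at the ends of the cardiomyocyte and macrophage sums above, and the part of those cells in the shares was not tested. The shares rest on how the authors' quantification divided reads between similar models. Of the 19 genes with more than 1 model, 12 had a leading model with over 80% of the gene's TPM at the median library.

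**Figure D4:**
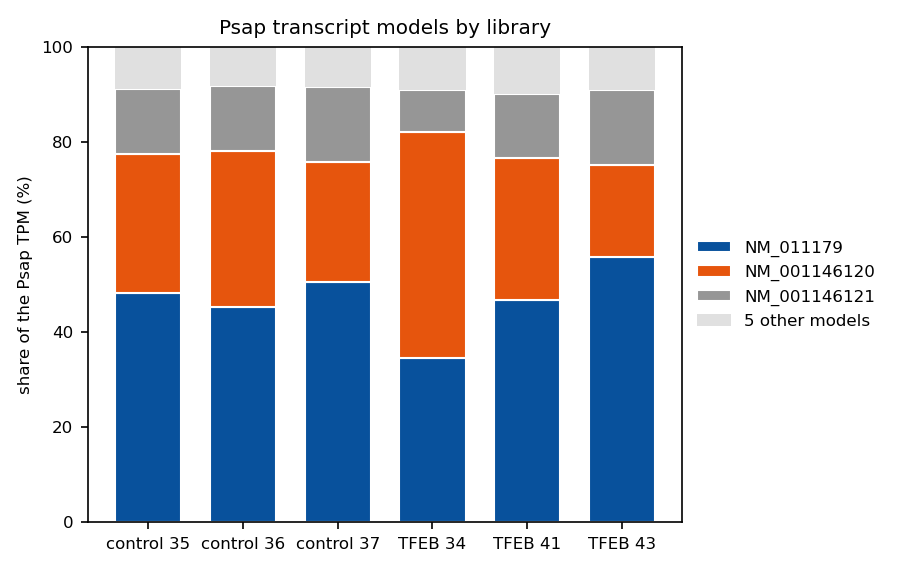
Share of the Psap TPM held by each transcript model in each library, in percent. NM_001146120 holds 47.5% in TFEB 34 and 19.3% in TFEB 43, with the controls between 25.2% and 32.9%.

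The 8 genes of glycosaminoglycan breakdown encode the enzymes that take heparan, dermatan and keratan sulfate and hyaluronan apart, and their loss causes the mucopolysaccharidoses. Of the 8, 7 had a higher value in TFEB overexpression, 0 were called, and the median log2 fold change was 0.11, or 2 of 8 and −0.037 without TFEB 34. Gusb, beta-glucuronidase, had 44.2, 46.8 and 35.4 CPM in the controls, then 70.9, 51.2 and 32.4 CPM with TFEB. TFEB 34 and TFEB 41 lay above the controls and TFEB 43 below them. Its log2 fold change of 0.29 (SE 0.28, edgeR adjusted p = 1.00) was −0.0099 without TFEB 34.

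Naglu, which cleaves N-acetylglucosamine from heparan sulfate, had 15.6, 16.6 and 13.9 CPM in the controls, then 25.2, 15.9 and 14.4 CPM with TFEB. Its difference lay in TFEB 34, since the log2 fold change was 0.27 (SE 0.23) with that library and −0.021 without it. Galns, a sulfatase of keratan sulfate, had 8.72, 9.41 and 5.52 CPM in the controls, then 13.4, 9.08 and 6.12 CPM with TFEB. TFEB 34 again stood above all other libraries, and the log2 fold change was 0.28 (SE 0.34) with it and −0.053 without it.

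Idua, the iduronidase lacking in Hurler disease, did not follow the common order. Its values were 41.1, 31.2 and 39.1 CPM in the controls, then 38.6, 38.1 and 43.1 CPM with TFEB. Control 36 was its lowest library, and the log2 fold change was 0.10 (SE 0.13), or −0.0064 without control 36. Ids, the iduronate sulfatase that acts on the same sugars, differed little between the groups, at 53.9 ± 3.13 and 54.2 ± 5.05 CPM (SD, n = 3 each), with a log2 fold change of 0.0097 (SE 0.10) and a 95% interval of the ratio from 0.850 to 1.19. Sgsh (0.11, SE 0.20), Arsb (0.069, SE 0.24) and the hyaluronidase gene Hyal1 (−0.036, SE 0.16) completed the group. Without TFEB 34 Sgsh stood at −0.098 and Arsb at −0.14, and without TFEB 43 Hyal1 stood at 0.033.

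Gaa, Manba, Man2b1 and Fuca1 break down glycogen and the sugar chains of glycoproteins, and 2 of the 4 had a higher value with TFEB (0 called), at a median log2 fold change of 0.011, or 0 of 4 and −0.14 without TFEB 34. Man2b1, the lysosomal alpha-mannosidase, had 90.7, 104 and 77.9 CPM in the controls, then 128, 87.8 and 74.4 CPM with TFEB. It followed the common order, with a log2 fold change of 0.093 (SE 0.22), or −0.16 without TFEB 34. Gaa, acid alpha-glucosidase, clears glycogen from the lysosome, and its loss in Pompe disease enlarges the heart. It had 238, 183 and 190 CPM in the controls, then 193, 187 and 214 CPM with TFEB. Control 35 was the highest library, and the log2 fold change was −0.040 (SE 0.14), or 0.089 without control 35. The beta-mannosidase gene Manba (−0.040, SE 0.11) and the fucosidase gene Fuca1 (0.062, SE 0.26) stood at 0.034 and −0.22 without TFEB 43 and TFEB 34 respectively.

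All 3 genes of lysosomal lipid and sterol handling had a higher value with TFEB (0 called), at a median log2 fold change of 0.14, or 0 of 3 and −0.13 without TFEB 34. Lipa, the acid lipase that frees cholesterol and fatty acids from lipoproteins, had 53.4, 58.4 and 40.8 CPM in the controls, then 84.8, 54.9 and 43.5 CPM with TFEB. TFEB 34 was the one TFEB library above the controls, which set its log2 fold change at 0.26 (SE 0.27, edgeR adjusted p = 1.00), or −0.047 without it. Npc2, which carries cholesterol to the membrane protein NPC1, had 142, 138 and 80.5 CPM in the controls, then 160, 129 and 80.4 CPM with TFEB. Control 37 and TFEB 43 were nearly equal and well below the other 4 libraries, and the log2 fold change was 0.037 (SE 0.31), or −0.19 without TFEB 34. The lysosomal phospholipase gene Pla2g15 stood at 0.14 (SE 0.29), or −0.13 without TFEB 34.

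The acid phosphatase genes differed in how far the libraries lay apart. Acp5, the tartrate-resistant acid phosphatase of osteoclasts and some macrophages, had 3.56, 7.65 and 1.01 CPM in the controls, then 5.98, 3.66 and 0.826 CPM with TFEB. Its highest library was 9.26 times its lowest, the widest range of the 30 genes, on 10 to 109 counts per library. The log2 fold change was −0.21 (SE 0.85), or 0.61 without control 36 and −0.85 without TFEB 34. Acp2, the lysosomal acid phosphatase, had 53.3, 49.8 and 46.4 CPM in the controls, then 57.1, 53.7 and 47.9 CPM with TFEB. Its log2 fold change of 0.087 (SE 0.10) had a 95% interval of the ratio from 0.894 to 1.26, and it was 0.028 without TFEB 34 and 0.15 without TFEB 43.

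Legumain, tripeptidyl peptidase and palmitoyl thioesterase all had a higher value with TFEB (0 of 3 called), at a median log2 fold change of 0.089, or 2 of 3 and 0.046 without TFEB 34. Lgmn (Entrez 19141, chromosome 12, 102394082 to 102439728) encodes legumain, an asparaginyl endopeptidase that also processes cathepsins. It had 130, 140 and 116 CPM in the controls, then 193, 138 and 128 CPM with TFEB. TFEB 34 stood above the rest, and the other TFEB libraries lay within the range of the controls. Its group means of 129 ± 12.2 and 153 ± 35.2 CPM (SD, n = 3 each) gave a log2 fold change of 0.25 (SE 0.18, edgeR adjusted p = 1.00), which was 0.046 without TFEB 34. Tpp1 had 95.7, 80.1 and 75.9 CPM in the controls, then 86.2, 89.0 and 86.2 CPM with TFEB, with the TFEB libraries inside the range of the controls (log2 fold change 0.054, SE 0.11, or −0.012 without control 37). Ppt1, which takes fatty acids off proteins, stood at 0.089 (SE 0.14), or −0.031 without TFEB 34.

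Other lysosome genes were taken from lists for comparison. Among 21 further soluble hydrolases, 14 had a higher value in TFEB overexpression and 7 a lower, with 0 called and a median log2 fold change of 0.086. The 2 with the smallest p were the heparanase gene Hpse (0.72, SE 0.47) and the aspartylglucosaminidase gene Aga (−0.17, SE 0.13). Of 14 genes that tag or sort these enzymes, 4 had a higher value, with 0 called and a median of −0.012, and the 2 with the smallest p were the sorting receptor gene Sort1 (−1.08, SE 0.58) and the adaptor gene Gga3 (−0.19, SE 0.11). Sort1 stood at 318 CPM in control 35 and between 58.8 and 121 CPM in the other 5 libraries. Of 19 lysosomal membrane genes, 13 had a higher value, with 0 called and a median of 0.048, and the chloride-proton exchanger gene Clcn7 (0.12, SE 0.092) and the membrane glycoprotein gene Lamp1 (0.17, SE 0.13) had the smallest p. In 1 of the 19, Mcoln1, the groups did not overlap, where 2.51% of all genes were clear on the lower side. It had 25.4, 25.6 and 25.6 CPM in the controls, then 25.1, 22.6 and 25.0 CPM with TFEB, a log2 fold change of −0.073. Of 13 cathepsin genes 12 were tested, 9 had a higher value and 0 were called, with a median of 0.21. The level of the cathepsins ran from −0.54 in TFEB 43 to 0.62 in TFEB 34, the same ends as in the macrophage markers. Without TFEB 34 the counts were 7 of 21 further hydrolases, 3 of 14 tagging and sorting genes, 7 of 19 membrane genes and 3 of 12 cathepsins, and without TFEB 41 the tagging and sorting genes stood at 10 of 14, with a median of 0.036.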

How the data were processed

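Per the submitters' processing notes, the build was mm10 and the tools, listed without roles, were RSEM 1.3.1, HISAT2 2.1.0, DESeq2 1.4.5 and Bowtie2 2.3.4.3. The single table that the authors deposited lists 62498 RefSeq transcripts and, per the file headers, a read count and a TPM per library. The read counts deposited are estimated counts, unscaled for depth, and the TPM values the authors deposited sum to the same total in each library. The sources used here do not give the strand setting, annotation release or filters. Columns of deposited FPKM and of group averages were not used.

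Estimated counts were summed per Entrez gene and rounded. Symbols came from RefSeq genes of GRCm38.p6, and 117 genes (0.510% of counts) without one were kept. TFEB overexpression was compared with control with the two-sided quasi-likelihood test of edgeR 4.0.16 (R 4.3.3), after filterByExpr and TMM scaling, on 13565 genes. Benjamini-Hochberg adjustment ran over all of them, with calls made at an adjusted p under 0.05, and intervals cover 95%. List levels are mean log2 CPM with a prior count of 2. Alternatives used DESeq2 1.42.0, limma 3.58.1, other scaling and filters, TPM values, each library left out, and marker levels as covariates. On simulated counts for these 13565 genes edgeR recovered 38% of 2-fold and 89% of 4-fold changes, with 13 false calls. The changes were put only into some genes above a minimum mean CPM, which Acp5 does not reach. Genes were drawn independently, without shifts shared across a library, so these rates may not hold for the real libraries.

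The members and lists were chosen with earlier results of these data known. Values of every library are given for the 3 members highest in TPM and the lowest, the 8 with the smallest p, any whose groups do not overlap, and the largest change per role. Those of Hexa, Gaa, Npc2 and Tpp1 were added after their values were seen.

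By the GENCODE basic annotation of the same build, 6 members share exon bases with another protein-coding gene, so their counts are uncertain: Acp2 (621 bases with Ddb2), Sgsh (955 with Card14), Hyal1 (819 with Naa80 and 159 with Hyal3), Glb1 (165 with Tmppe), Idua (141 with Slc26a1 and 56 with Dgkq) and Ppt1 (32 with Cap1). Figures were drawn with matplotlib 3.10.9.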

Additional observations from a re-analysis of the deposited data

How the results depend on the processing

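RLE or upper-quartile scaling, DESeq2, limma-voom, other filters, log2(TPM + 1) and log2(TPM + 0.1) each left 24 of 30 members higher and 0 called, with a median log2 fold change from 0.080 to 0.10. Over all genes DESeq2 called 1, Ddit4, and the other alternatives called 0. With each library left out in turn, 8 to 27 members were higher and the median ran from −0.059 to 0.25, with 0 members called. With the macrophage level as a covariate 13 members were higher and the median was −0.0038. The members that changed sign there stood at −0.032 for Hexa, −0.025 for Galc, −0.0013 for Arsa, −0.0063 for Asah1, −0.00042 for Sgsh, −0.056 for Arsb, −0.019 for Ids, −0.034 for Man2b1, −0.11 for Fuca1, −0.030 for Pla2g15 and −0.14 for Npc2. Of the 30 members, 27 changed sign under at least 1 of the 16 alternatives, 16 of them without TFEB 34. With 1 library left out, the log2 fold changes of those that changed sign ran as follows: Glb1 −0.11 to 0.24, Hexa −0.11 to 0.32, Galc −0.10 to 0.38, Arsa −0.066 to 0.31, Asah1 −0.10 to 0.30, Smpd1 −0.11 to 0.21, Neu1 −0.084 to 0.031, Psap −0.024 to 0.14 and Gm2a −0.38 to 0.028. For the next they were Gusb −0.0099 to 0.54, Naglu −0.021 to 0.42, Sgsh −0.098 to 0.27, Arsb −0.14 to 0.23, Galns −0.053 to 0.51, Ids −0.041 to 0.076, Idua −0.0064 to 0.19, Hyal1 −0.15 to 0.033 and Gaa −0.11 to 0.089. For the last they were Manba −0.13 to 0.034, Man2b1 −0.16 to 0.25, Fuca1 −0.22 to 0.27, Lipa −0.047 to 0.46, Pla2g15 −0.13 to 0.36, Npc2 −0.19 to 0.27, Acp5 −0.85 to 0.61, Tpp1 −0.012 to 0.16 and Ppt1 −0.031 to 0.20. The members that kept their sign ran from 0.25 to 0.58 for Gla, 0.046 to 0.36 for Lgmn and 0.028 to 0.15 for Acp2. No paired analysis was possible because the groups share no replicate numbers. Counts were lowest for Acp5 (10 to 109 per library) and Gla (48 to 131), which limits their precision.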
